A study of Mus musculus with 6 samples.

Results

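The regions described are the ATRX peaks of mouse chromosome 10 in 2 deposited peak lists, 225 peaks in mouse embryonic fibroblasts (MEFs, connective-tissue cells grown in culture) and 53 in erythroid cells of the foetal liver. They were chosen by chromosome, as every interval that the lists place on chromosome 10 of mm9, out of 2054 MEF and 983 foetal liver peaks. The chromosome itself was picked with the peak numbers of both lists known, so its density is a description and supports nothing. Both samples are from the C57BL/6 strain, and the labels give no genetic change or drug treatment for either. The erythroid cells came from E14.5 livers and were selected on magnetic beads for Ter119, a surface protein of maturing red blood cells, and no age is given for the MEFs. The 6 samples of the series have 1 library per group, so neither cell type has a replicate, and no value below has an error across cultures or animals. The other 4 samples (a C57BL/6 MEF input, ATRX and input libraries of MEFs labelled W8, and ATRX in MEFs lacking Suv39h1 and Suv39h2) were not analysed here.

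ATRX is a chromatin remodelling protein of the SWI/SNF family. With its partner DAXX it places a variant of histone H3 in chromatin, mostly at repeat-rich and heterochromatic DNA such as telomeres and the regions around centromeres. Mutations of the gene in people cause a syndrome of intellectual disability with alpha thalassaemia, and so the protein is also studied in red cell precursors. In chromatin immunoprecipitation with sequencing (ChIP-seq), DNA bound by a protein is pulled down with an antibody and sequenced, and a peak is a stretch where reads pile up.

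The lists give the position of each peak and nothing on its height, so the depth behind a peak is unknown. Each peak counts the same here, and peaks could be described by where they lay, how wide they were and how far apart. Intervals are exact 95% intervals that cover only the counting of peaks. Neighbouring peaks are not independent, and no test was run, because a group of 1 library has no replicate spread. With depth, control and peak calling unknown for each library, cell type and library cannot be told apart in any difference between the lists.

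Chromosome 10 was dense in MEF peaks and ordinary in foetal liver peaks. MEF peaks numbered 1.77 per Mb of sequenced chromosome 10 and 0.741 per Mb of the other chromosomes, a ratio of 2.39 (2.07 to 2.75). Against the other autosomes alone, without X and Y, the ratio was 2.23 (1.94 to 2.57). Among the 18 other autosomes the MEF density ran from 0.426 per Mb on chromosome 14 to 1.77 on chromosome 19, all below that of chromosome 10 before rounding. In foetal liver the density was 0.417 per Mb on chromosome 10 and 0.377 elsewhere, a ratio of 1.11 (0.823 to 1.46). Against the other autosomes alone the ratio was 1.05 (0.779 to 1.38), and 6 of those 18 were denser. There were thus 4.25 MEF peaks for each foetal liver peak on chromosome 10, against 1.97 on the other chromosomes together. MEF peaks covered 397.9 kb, or 0.313% of the sequenced chromosome, and foetal liver peaks covered 47.5 kb, or 0.0374%.

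**Figure D1:**
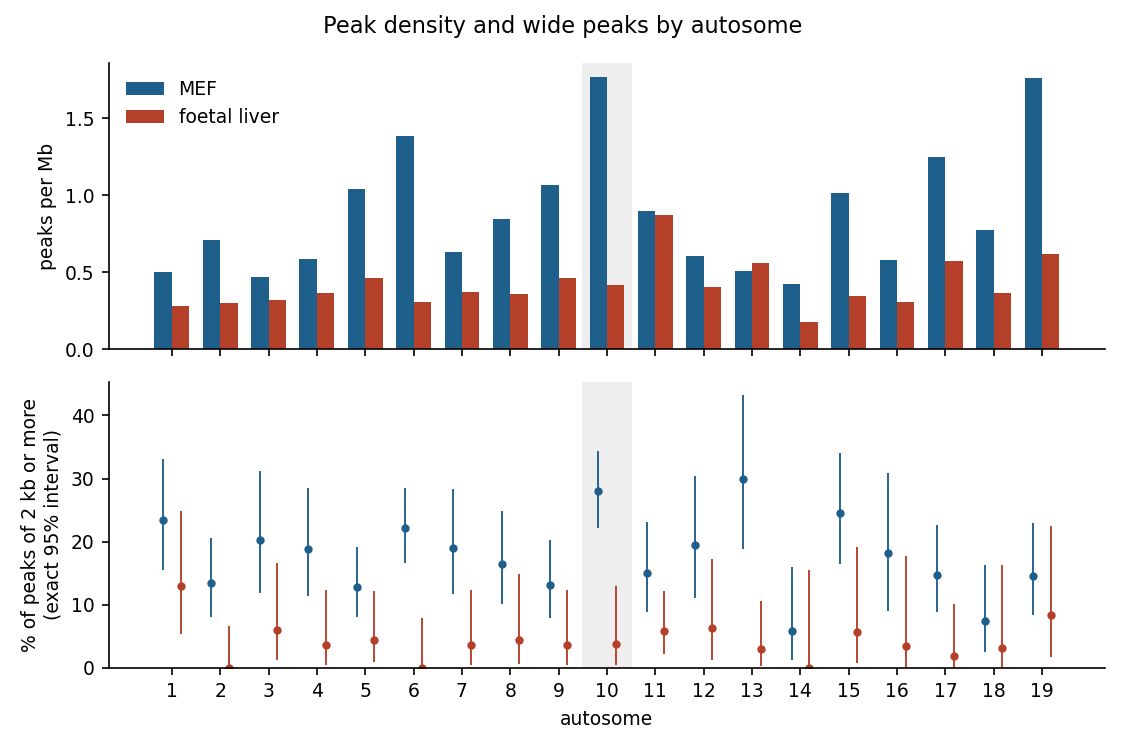
Upper panel, ATRX peaks per Mb of sequenced chromosome (y axis) on each of the 19 autosomes (x axis), in MEFs (blue) and foetal liver (red). Lower panel, share of peaks 2 kb or wider, with exact 95% intervals for the counting of peaks. Chromosome 10, shaded, had 1.77 MEF and 0.417 foetal liver peaks per Mb, and 28.0% of its MEF peaks were 2 kb or wider.

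MEF peaks on chromosome 10 were also wide. Their median width was 1216 bp (1052 to 1430 bp), against 1000 bp (966 to 1046 bp) on the other chromosomes, a difference of 216 bp. Of the 225 peaks, 63 (28.0%, 22.2 to 34.4%) were at least 2 kb wide, where 18.5% of the whole MEF list and 17.3% (15.6 to 19.1%) of peaks on the other chromosomes were. Of the other autosomes, 1 had a larger share of such peaks (chromosome 13, 30.0% of 60 peaks) and 2 a larger median width. By width, 20 MEF peaks of the chromosome were under 500 bp, 70 from 500 bp to 1 kb, 72 from 1 to 2 kb, 52 from 2 to 5 kb and 11 wider. The peaks of at least 2 kb held 58.5% of all base pairs its MEF peaks covered. Peaks of 5 kb or more were 4.89% of the MEF peaks on chromosome 10 and 2.84% elsewhere.

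Foetal liver peaks on chromosome 10 had ordinary widths. The median was 680 bp (599 to 812 bp) there and 674.5 bp (650 to 709 bp) elsewhere. Only 2 of 53 (3.77%, 0.460 to 13.0%) were at least 2 kb wide, where 4.68% of the whole foetal liver list were. By width, 13 were under 500 bp, 27 from 500 bp to 1 kb, 11 from 1 to 2 kb, and 1 each in the classes above. The narrowest MEF peak of the chromosome spanned 310 bp and the narrowest foetal liver peak 299 bp.

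**Figure D2:**
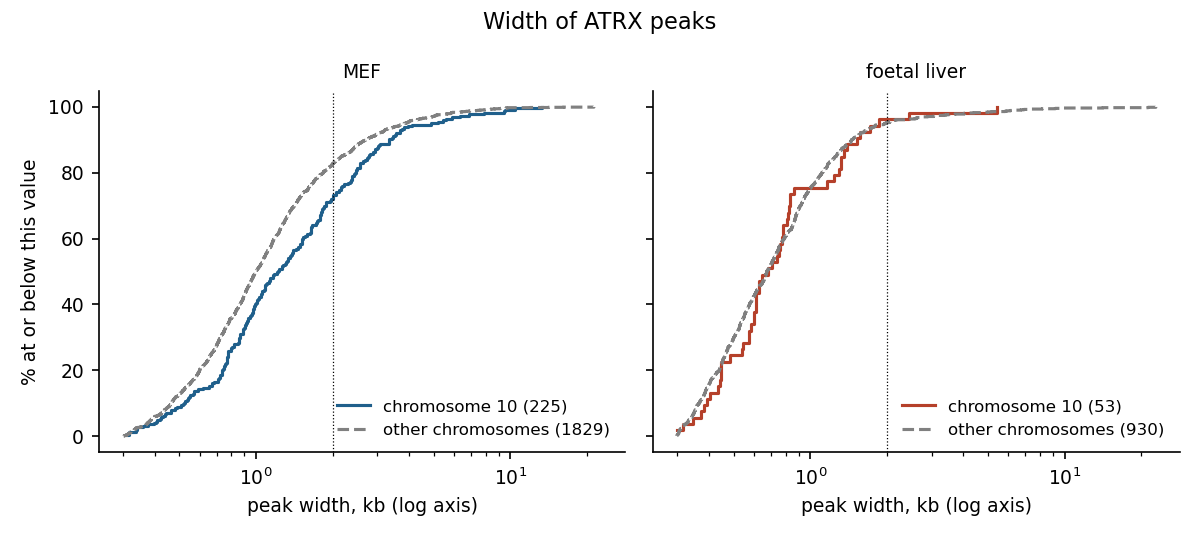
Percentage of ATRX peaks (y axis) at or below a given width in kb (x axis, log scale), for chromosome 10 (coloured lines) and the other chromosomes (dashed lines) in MEFs and foetal liver. The dotted line marks 2 kb. The MEF line of chromosome 10 lies to the right of the other chromosomes over most widths, with medians of 1216 and 1000 bp, and the foetal liver lines run together, with medians of 680 and 674.5 bp.

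Some of the 10 widest MEF peaks lay close together. The widest of all, chr10:107807804-107821113, spanned 13310 bp, and 1518 bp before it ended another of the 10 widest, chr10:107799967-107806285 (6319 bp). Both belonged to a group of 5 peaks over 235.5 kb (chr10:107799967-108035417) that stood between peak-free stretches of 2.84 and 2.55 Mb. A second place, chr10:122290629-122422868, held 5 peaks within 132.2 kb, and they covered 24.4% of it. It included 3 of the 10 widest, chr10:122412477-122422868 (10392 bp), chr10:122325498-122335017 (9520 bp) and chr10:122290629-122298536 (7908 bp). No foetal liver peak lay in either group, but with 0.417 per Mb on the chromosome, spans this short would seldom hold one.

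The other 5 of the 10 widest MEF peaks stood apart from these. They were chr10:12805934-12815343 (9410 bp), chr10:78524730-78531602 (6873 bp), chr10:24314316-24320220 (5905 bp), chr10:69955240-69960836 (5597 bp) and chr10:70422736-70428175 (5440 bp). The last was the only one of the 10 that was also a foetal liver peak. The nearest MEF peak to the first of these lay 174.1 kb away. The 10 widest together held 20.3% of the base pairs under MEF peaks on the chromosome.

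In foetal liver the shared peak chr10:70422736-70428175 (5440 bp) was the widest. The next were chr10:128550876-128553308 (2433 bp), the last foetal liver peak before the distal end, and chr10:67271345-67273199 (1855 bp). Then came chr10:40913876-40915591 (1716 bp), chr10:39979630-39981202 (1573 bp) and chr10:99982172-99983690 (1519 bp), of which the first and last were also MEF peaks. The remaining 4 of the 10 widest were chr10:39851008-39852406 (1399 bp), chr10:105179646-105181000 (1355 bp), chr10:84037970-84039287 (1318 bp) and chr10:22993805-22995119 (1315 bp).

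Along the chromosome both lists were uneven. Mouse chromosomes have the centromere at one end, and the first 3 Mb of mm9 chromosome 10 hold no sequence, so positions run from the centromere side at 3 Mb to the telomere side at 129.993 Mb. In 26 bins, of 5 Mb each apart from the last, the MEF list had from 0 to 33 peaks (median 6.5) and the foetal liver list from 0 to 8 (median 1). The bin from 78 to 83 Mb was the busiest MEF bin, with 33 peaks, and it also held 8 foetal liver peaks. Foetal liver reached 8 peaks in 2 more bins, 38 to 43 Mb and 123 to 128 Mb, where the MEF list had 11 and 8. These 3 bins together held 24 of the 53 foetal liver peaks. The 3 busiest MEF bins (58 to 63, 68 to 73 and 78 to 83 Mb) held 69 of 225.

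**Figure D3:**
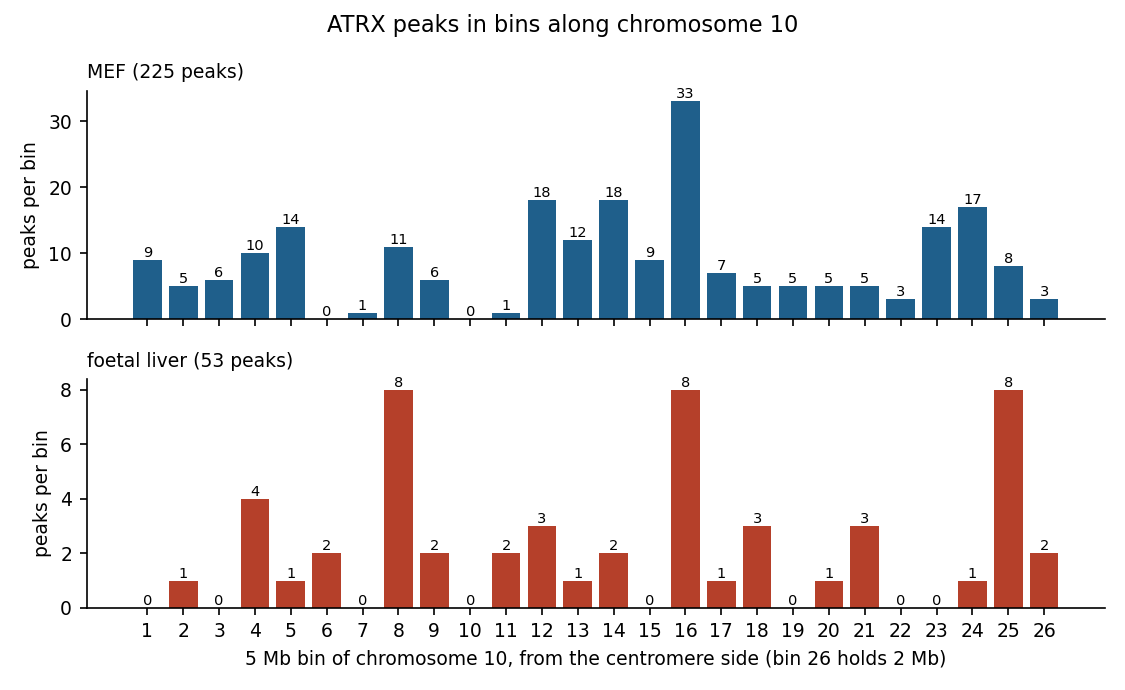
Number of ATRX peaks (y axis) in each 5 Mb bin of chromosome 10, numbered from the centromere side (x axis), in MEFs (upper panel) and foetal liver (lower panel, own scale). Bin 16 had the most MEF peaks, 33, and bins 8, 16 and 25 had 8 foetal liver peaks each.

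Peak number and covered length did not rank the bins alike in MEFs. The bin from 78 to 83 Mb had 49.04 kb under its 33 peaks, of which 6 were at least 2 kb wide. The bin from 118 to 123 Mb had 48.7 kb under only 17 peaks, 5 of them that wide, and it includes the group of 5 that holds 3 of the 10 widest peaks. The bin from 73 to 78 Mb had 9 peaks with a median width of 2466 bp, and 5 of the 9 were at least 2 kb. Wide peaks were not confined to the crowded places, and 21 of the 26 bins held at least 1.

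More MEF peaks lay on the telomere side of the midpoint than on the centromere side. Distal to the midpoint of the sequence lay 144 of 225 MEF peaks (64.0%, 57.4 to 70.3%) and 30 of 53 foetal liver peaks (56.6%, 42.3 to 70.2%). With MEF peaks within 100 kb of each other counted once, the MEF share was 54.7% (46.3 to 62.8%), an interval that includes an even split. The last 5 Mb made up 3.94% of the sequenced length. They held 9 foetal liver peaks (17.0%, 8.07 to 29.8%) and 11 MEF peaks (4.89%, 2.47 to 8.58%). Of these 9 foetal liver peaks, 5 lay in chr10:126726225-127115454, a span of 389.2 kb. The same share was not measured on the other chromosomes. Whether chromosome 10 differs from them at its distal end is therefore unknown. The MEF list came closest to both ends, with a first peak at chr10:3071550-3072441, 71.5 kb after the gap, and a last at chr10:129960132-129961227, 32.03 kb from the end. The first foetal liver peak, chr10:11736642-11737088, lay 8.74 Mb into the sequence. The last, chr10:128550876-128553308, ended 1440 kb from the end.

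**Figure D4:**
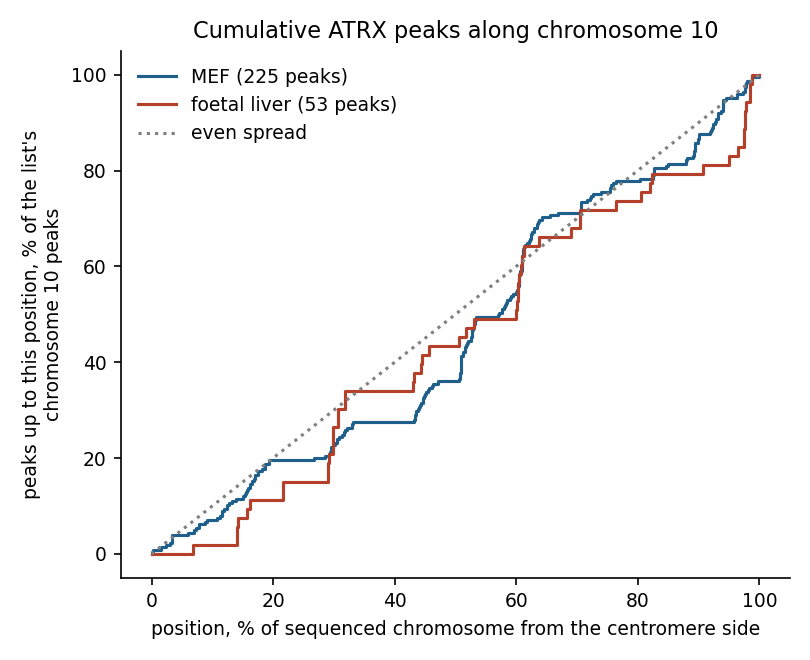
Cumulative percentage of the chromosome 10 peaks of each list (y axis) against position as a percentage of the sequenced chromosome from the centromere side (x axis), for MEFs (blue, 225 peaks) and foetal liver (red, 53 peaks). The dotted diagonal stands for an even spread. Flat parts are peak-free stretches, the longest of which reached 12.7 Mb in MEFs and 14.3 Mb in foetal liver.

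The MEF list fell into 15 blocks divided by peak-free stretches of at least 2 Mb. The largest block, chr10:75290023-87835067, had 49 peaks in 12.5 Mb, with 9 foetal liver peaks. The block chr10:67158287-70771452 packed 30 MEF peaks into 3.61 Mb, 8.30 per Mb, and 11 of the 30 were at least 2 kb wide. It had 3 foetal liver peaks, and the stretches on its sides were free of peaks of both lists for 4.27 and 4.52 Mb. From chr10:107799967-108035417 on, 4 successive blocks with 5, 2, 14 and 17 MEF peaks (38 in all) held no foetal liver peak. MEF peaks away from foetal liver peaks were common. Foetal liver peak-free stretches of at least 2 Mb held 60.4% of MEF peaks on chromosome 10 and 72.4% of the whole MEF list. The block after these 4, chr10:125398333-129961227, had 11 MEF and 9 foetal liver peaks.

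Within the blocks, the densest 1 Mb MEF window was chr10:79550816-80550192, with 17 peaks from 360 to 2553 bp wide, 3 of them at least 2 kb, and 5 foetal liver peaks. The next window, chr10:67469835-68468557, held 14 MEF peaks from 425 to 5169 bp wide and no foetal liver peak. Another, chr10:69648701-70643849, held 10 MEF peaks that were wider, with a median of 2283 bp against 1395 bp in the first window, and 1 foetal liver peak, the shared one. The densest foetal liver window, chr10:79175261-80161287, had 6 peaks and overlapped the densest MEF window. It was followed by chr10:126726225-127115454 with 5 foetal liver and 3 MEF peaks, and by chr10:39979630-40925070 with 4 and 5.

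Neighbouring MEF peaks lay close together on chromosome 10. The median of 224 gaps was 194.2 kb (149.8 to 278.7 kb), and on the other 18 autosomes medians ran from 218.3 kb on chromosome 19 to 914.6 kb on chromosome 13. Without the densest 1 Mb MEF window the median on chromosome 10 was 244.04 kb, and without the busiest bin 244.6 kb. Both are longer than the median of chromosome 19, from which nothing was left out. The middle 50% of all MEF gaps on chromosome 10 ran from 51.4 to 477.1 kb. The foetal liver median was 496.2 kb (202.3 to 1421 kb, 52 gaps), and 3 of the 18 other autosomes had a shorter one. Without the densest 1 Mb foetal liver window it was 931.5 kb, longer than the 684.7 kb of the other chromosomes. Without the bin from 38 to 43 Mb it was 511.7 kb, which is shorter than that of the other chromosomes. Gaps of 1 Mb or more made up 13.4% of MEF gaps on chromosome 10 and 29.4% elsewhere, and 44.2% and 42.9% of foetal liver gaps. A shorter gap is part of having more peaks on the same length, so these values and the densities above are not separate measurements.

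**Figure D5:**
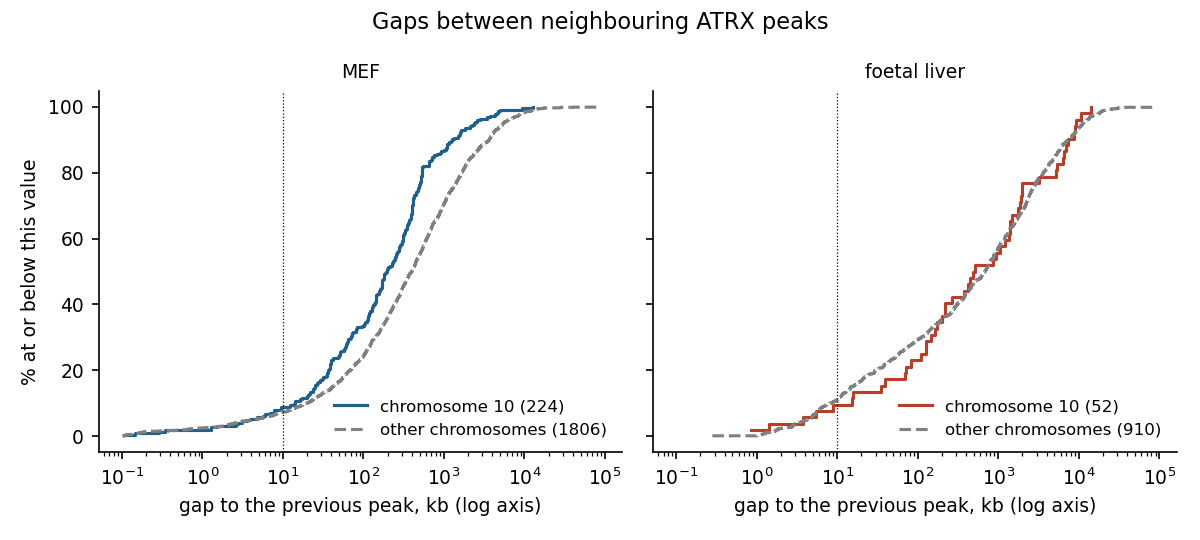
Percentage of gaps between neighbouring ATRX peaks (y axis) at or below a given length in kb (x axis, log scale), for chromosome 10 (coloured) and the other chromosomes (dashed) in MEFs and foetal liver. The 3 pairs of overlapping MEF peaks on other chromosomes are left out, and the dotted line marks 10 kb. MEF gaps on chromosome 10 were shorter, with a median of 194.2 kb, while the lines nearly meet below 10 kb.

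At a limit of 10 kb chromosome 10 was near the background of each list. In MEFs, 33 of 225 peaks (14.7%, 10.3 to 20.0%) had another peak within 10 kb, where 13.0% of the whole list did. In foetal liver, 9 of 53 (17.0%, 8.07 to 29.8%) did, where 18.8% of the whole list did. Within 1 kb the foetal liver share was 3.77% (0.460 to 13.0%), a single pair of peaks at the shared region of 40.9 Mb, against 0.215% elsewhere, and the MEF share 3.56% against 4.76%. Within 100 kb the MEF share was 51.1% (44.4 to 57.8%) on chromosome 10 and 39.5% (37.3 to 41.8%) elsewhere, and the foetal liver share 41.5% and 45.5%.

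The 33 close MEF peaks formed 13 groups, of which 10 were pairs. The largest group, chr10:80401870-80436490, had 5 peaks over 34.6 kb with widths from 1052 to 2553 bp. The group chr10:67551952-67568136 had 4 peaks, from 1083 to 5169 bp wide, that covered 59.3% of its 16.2 kb. The group chr10:7232704-7237278 also had 4 peaks, but they were narrow, from 317 to 540 bp, and covered 41.2% of 4.58 kb. Both groups of 4 and the pair chr10:67469835-67472468 held the 4 MEF gaps under 1 kb on the chromosome, of 106, 147, 292 and 345 bp. No foetal liver peak lay inside any of the 13 groups, the longest of which spanned 34.6 kb. With 0.417 foetal liver peaks per Mb on the chromosome, spans this short would seldom hold one.

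Close foetal liver peaks were gathered in 1 part of the chromosome. Of the 9, 7 lay between 38 and 43 Mb, as the pairs chr10:39844740-39852406 and chr10:41980252-41985184 and the group of 3 chr10:40912724-40925070. The remaining 2 formed the pair chr10:126726225-126729418. Without the bin from 38 to 43 Mb the share of foetal liver peaks with another within 10 kb was 4.44%. The MEF list had no pair within 10 kb in that bin, and its 11 peaks there shared 1 region with foetal liver.

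Width went with crowding in MEFs, though on chromosome 10 only loosely. MEF peaks of chromosome 10 with another within 100 kb had a median width of 1356 bp (1057 to 1661 bp, 115 peaks), and those without had 1119 bp (932 to 1393 bp, 110 peaks). These intervals overlap. On the other chromosomes the medians were 1060 bp (973 to 1132 bp) and 977.5 bp (945 to 1022 bp). In both classes the chromosome 10 median was the larger. On chromosome 10, 33.0% (24.6 to 42.4%) of peaks with another within 100 kb were at least 2 kb wide, and 22.7% (15.3 to 31.7%) of those without. Elsewhere the shares were 21.9% (18.9 to 25.0%) and 14.4% (12.4 to 16.6%), with intervals that do not overlap. At a limit of 10 kb the chromosome 10 medians were 1205 bp with a neighbour and 1221.5 bp without.

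Peak-free stretches of the lists coincided in several parts of the chromosome. Foetal liver stretches of at least 2 Mb made up 81.8% of its sequence and 88.7% elsewhere. A MEF stretch would thus often meet one wherever it lay. The longest stretch lay in the same place in both lists. MEF peaks left out chr10:45116310-57782089 (12.7 Mb) and foetal liver peaks chr10:43346124-57692967 (14.3 Mb), and 12.6 Mb were free of both. The second MEF stretch, chr10:27588347-36959846 (9.37 Mb), held 2 foetal liver peaks and shared 6.49 Mb with the third foetal liver stretch, chr10:30470114-39844739 (9.37 Mb). The third MEF stretch, chr10:99983691-104958068 (4.97 Mb), began at the shared peak chr10:99982172-99983690, where a foetal liver stretch of 5.20 Mb began too. The second foetal liver stretch, chr10:107525594-118205783 (10.7 Mb), was unlike these and held 21 MEF peaks.

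Foetal liver peaks were few in the places that MEF peaks left out. The 14 MEF stretches of at least 2 Mb made up 49.1% of sequenced chromosome 10 and held 10 of 53 foetal liver peaks (18.9%, 9.44 to 32.0%). In 8 of the 14 there was no foetal liver peak. Such stretches held 39.9% of the whole foetal liver list. On the other chromosomes they made up 71.4% of the sequence and held 41.1% (37.9 to 44.3%) of foetal liver peaks. In the other direction, the 14 foetal liver stretches of at least 2 Mb made up 81.8% of the chromosome and held 136 of 225 MEF peaks (60.4%, 53.7 to 66.9%), where 72.4% of the whole MEF list lay in such stretches. On the other chromosomes the foetal liver stretches made up 88.7% of the sequence and held 73.9% of MEF peaks. A share of peaks below the share of length was thus seen on the other chromosomes as well. With foetal liver stretches of at least 5 Mb the order between chromosome 10 and the rest turned. They held 52.4% of MEF peaks on chromosome 10 and 46.2% elsewhere. These stretches also made up more of chromosome 10, 77.8% of its sequence against 70.1% elsewhere. The share of peaks over the share of length was then 0.675 and 0.659. The difference between chromosome 10 and the rest was not tested.

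Only 5 peaks of the chromosome were in both lists. They make up 5 of 225 MEF peaks (2.22%, 0.725 to 5.11%) and 5 of 53 foetal liver peaks (9.43%, 3.13 to 20.7%). In the whole lists 3.12% of MEF and 6.21% of foetal liver peaks overlapped the other list by at least 1 bp, so the counts are near the background. They were chr10:40913876-40915591 (1716 bp), chr10:70422736-70428175 (5440 bp), chr10:79446067-79446845 (779 bp), chr10:79711407-79712704 (1298 bp) and chr10:99982172-99983690 (1519 bp). Each had the same first and last base in both lists, as did all 61 foetal liver peaks that overlapped a MEF peak on any chromosome. Whether the lists were called separately or together, and so whether such a region was found in each library on its own, is not known here. They included 3 of the 10 widest foetal liver peaks of the chromosome and 1 of the 10 widest MEF peaks.

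The surroundings of some shared regions differed between the lists. In foetal liver the region chr10:40913876-40915591 was the middle of a group of 3, with peaks 853 bp before it (chr10:40912724-40913022) and 8.78 kb after it (chr10:40924367-40925070). In MEFs its nearest neighbours were 362.9 and 353.2 kb away. The region chr10:79711407-79712704 was the reverse, with a MEF peak 13.8 kb after it and the nearest foetal liver peak 83.2 kb before it. The region chr10:99982172-99983690 was isolated in foetal liver, 7.37 Mb from the previous and 5.20 Mb from the next peak, and had a MEF neighbour 513.007 kb before it. The region chr10:79446067-79446845 was more alike in the lists. Its neighbours lay 256.5 kb before and 104.0 kb after it in MEFs, and 270.0 and 164.7 kb away in foetal liver.

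A few more foetal liver peaks came close to a MEF peak without touching it. In all, 9 of 53 lay within 10 kb of one, the shared 5 included. Besides both neighbours of the shared region at 40.9 Mb, these were chr10:127115011-127115454, 1.38 kb after the MEF peak chr10:127110842-127113631, and chr10:43329103-43329878, 3.78 kb after chr10:43323175-43325323. The median distance from a foetal liver peak to the nearest MEF peak was 93.5 kb (33.6 to 146.2 kb) on chromosome 10 and 237.03 kb (205.8 to 262.0 kb) elsewhere. Just 3 of 53 (5.66%, 1.18 to 15.7%) were over 1 Mb from any MEF peak, against 172 of 930 (18.5%) elsewhere. MEF peaks were 2.39 times as dense on chromosome 10, and the part of that density in these distances was not tested.

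Over the 26 bins the numbers of MEF and foetal liver peaks had a Pearson r of 0.438 and a Spearman rho of 0.264, as a description across bins of 1 chromosome that share their libraries. Without the bin from 78 to 83 Mb r was 0.162, so the value rested on that bin. On the 18 other autosomes r ran from 0.0824 to 0.657 with a median of 0.380, and rho was higher than on chromosome 10 on all 18.

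Chromosomes 6 and 19, the nearest to chromosome 10 in balance of the lists and in MEF density, and chromosome 11, the densest in foetal liver, are set beside it. Chromosome 6 had a similar balance of the lists, with 4.51 MEF peaks per foetal liver peak against 4.25. It had fewer MEF peaks per Mb (1.39), a longer median gap (267.4 kb) and a wide share of 22.2% (16.7 to 28.5%). Chromosome 19 had the same MEF density to 3 digits and a median gap of 218.3 kb. Of its 103 MEF peaks 14.6% (8.39 to 22.9%) were at least 2 kb wide, against 28.0% on chromosome 10, and it had 2.86 MEF peaks per foetal liver peak. Chromosome 11, with 0.900 MEF and 0.875 foetal liver peaks per Mb, had 1.03 MEF peaks per foetal liver peak and a wide share of 15.0% (8.80 to 23.1%) in MEFs. These differences were not tested.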

How the data were processed

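ChIP-seq used the ATRX H300 antibody on chromatin fixed with EGS and formaldehyde, per the labels' protocols. The submitters' processing notes name Bowtie 0.12.3 and mm9. Which peak caller, threshold and control were used is not given in the sources used here, nor is any removal of artefact-prone regions. Each file the authors deposited holds, in 3 columns, the chromosome, start and end of its peaks. Starts were taken as counted from 0, as the BED format has them, and are printed counted from 1. No header says so, and if they already count from 1, printed starts are 1 too high and widths 1 bp too small.

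Computing used Python 3.11.15, numpy 2.4.6, pandas 2.3.3 and scipy 1.17.1, with mm9 chromosome lengths from GenomeInfoDb 1.38.1. Density excluded the first 3 Mb of each chromosome but Y. Shares have Clopper-Pearson intervals and medians order-statistic intervals. The functions were tested on simulated data. Named regions are, per list, the 10 widest peaks, 3 densest 1 Mb windows, 3 longest peak-free stretches, first and last peaks, and all shared regions. Other regions were named after their values were seen. The chromosome and the rules were chosen with earlier results of these data known. No mm9 gene annotation or sequence was used, so no gene is named. Alternatives changed the width, distance, bin and stretch limits, merged close peaks or kept the wider 50% of each list. Others left out shared peaks, the densest window, the busiest bin, or chromosomes X and Y.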

Additional observations from a re-analysis of the deposited data

How the results depend on the processing

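Of 72 alternative values for 17 results, 53 stayed inside the main interval (for the correlation, within 0.1) and 19 moved. Shares at another width, distance or stretch limit are other quantities, so these counts do not measure how firm the results are. Whether the order against the other chromosomes held was not counted. With the wider 50% of each list, the MEF density ratio was 2.84. Median gaps were then 386.1 kb in MEFs, against 876.2 kb on the other chromosomes. In foetal liver they were 1613 kb, slightly longer than the 1547 kb elsewhere. Counting MEF peaks within 100 kb once gave a distal share of 54.7% (46.3 to 62.8%). Width limits of 1 kb and 5 kb gave MEF shares of 60.0% and 4.89%, where the other chromosomes had 50.03% and 2.84%, and 1 kb gave 24.5% in foetal liver. Neighbours within 1 kb and 100 kb gave 3.56% and 51.1% in MEFs and 3.77% and 41.5% in foetal liver. At 1 kb the other chromosomes had 4.76% in MEFs, above chromosome 10 as at no other limit, and 0.215% in foetal liver. Without the foetal liver bin from 38 to 43 Mb, 4.44% had a neighbour within 10 kb. The correlation was 0.571 in 2 Mb bins, 0.147 in 10 Mb bins and 0.162 without the busiest MEF bin. Peak-free stretches, whose limits were chosen after seeing the data, held 34.0% and 5.66% of foetal liver peaks at 1 and 5 Mb (58.3% and 17.6% elsewhere), and 82.2% and 52.4% of MEF peaks (84.96% and 46.2% elsewhere). The foetal liver density ratio, 1.11, was 0.990 without its densest window. It was 0.979 without the bin from 38 to 43 Mb, the first of the bins tied as busiest. Nothing was left out of the other chromosomes, so a lower ratio was bound to follow. The files give no read depth, so which differences depth limits is unknown. No paired analysis was possible because each group has 1 library.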
